A study of Mus musculus with 10 samples.

Results

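The cells described here are the endothelial cells of the mouse supraspinatus enthesis, where a tendon of the shoulder is anchored in bone. They were found by their RNA alone. A droplet counted as a cell when at least 500 genes were detected and at most 10% of its counts came from mitochondrial genes, and as endothelial when at least 3 of 6 genes (Pecam1, Cdh5, Emcn, Flt1, Egfl7 and Cldn5) had a count and the leukocyte gene Ptprc had none. Of 13479 kept cells, 566 met the rule. The libraries came from wild-type C57BL/6 mice at postnatal day 11 (P11), day 18 (P18) and day 56 (P56). Each age is 1 library of entheses pooled from a number of animals that the labels do not give. Red cells were lysed, live cells (DAPI-negative) without the leukocyte surface protein Cd45 were sorted, and the RNA of single droplets was counted with molecular identifiers (UMIs), so that 1 UMI stands for 1 captured RNA molecule. The series also holds 7 plates of sorted Gli1-lineage cells from tamoxifen-treated Gli1CreERT;Ai14 mice, 1 plate for each of the ages of 7, 11, 14 and 18 days and of 21, 28 and 42 days. With 1 library per age there was no test between ages, and every interval below is a 95% interval for counting error only, exact Poisson for a level and exact Clopper-Pearson for a share. It covers neither differences between cells nor differences between animals.

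Endothelial cells line blood and lymphatic vessels. Growing vessels are led by sprouting tip cells under the control of VEGF, Notch and apelin signals, and they lay down a basement membrane of type IV collagen and laminin, whereas resting vessels divide little and differ along their length into arteries, capillaries, which take up fatty acids in muscle and fat, and veins, through which leukocytes leave the blood. The enthesis is mineralised and remodelled after birth, and vessels of the adjoining bone and tendon reach its borders.

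Endothelial cells were 80 of 2952 kept cells at P11, a share of 2.71% (2.15 to 3.36%). At P18 they were 9 of 5396, or 0.167% (0.0763 to 0.316%), and at P56 they were 477 of 5131, or 9.30% (8.52 to 10.1%). The intervals of the 3 libraries do not overlap. The libraries also differed in how many kept cells had the leukocyte gene Ptprc. It was not detected in any of the 5131 kept cells of P56, which allows up to 0.0585%, whereas only 85.2% of kept cells at P11 and 53.0% at P18 lacked it. Taken over Ptprc-negative cells alone the endothelial shares were 3.18%, 0.315% and 9.30%, in the same order. A larger share cannot tell more endothelial cells from fewer of the others.

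**Figure D1:**
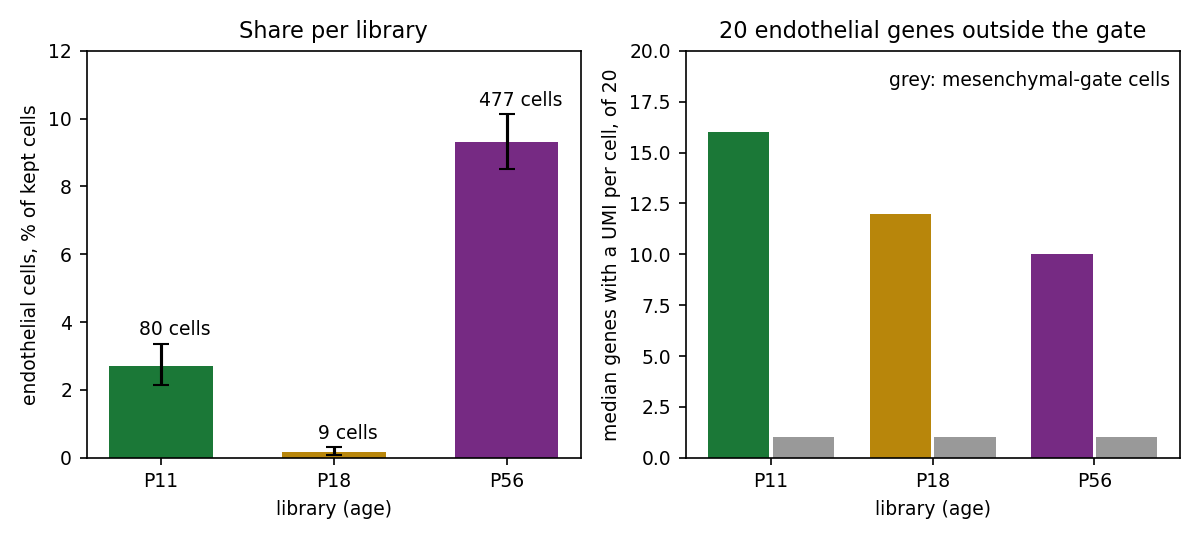
Left, endothelial cells as a percentage of kept cells in each library (bars), with exact 95% binomial intervals: 2.71% at P11, 0.167% at P18 and 9.30% at P56. Right, the median number of 20 endothelial genes outside the rule with a UMI per cell, for endothelial cells (coloured) and for mesenchymal-gate cells of the same library (grey): 16, 12 and 10 genes against 1 in each. Cells were read at full depth, which differs between libraries.

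The label was checked with 20 endothelial genes that the rule did not use, among them Tie1, Tek, Kdr, Erg and Plvap. The median endothelial cell had a UMI of 16 of the 20 genes at P11 (range 5 to 20), of 12 genes at P18 (range 10 to 20) and of 10 genes at P56 (range 2 to 19). At least 3 of the 20 were found in all 80 cells at P11, all 9 at P18 and 476 of 477 at P56. As a background, cells of a mesenchymal gate (at least 3 of Pdgfra, Dcn, Lum, Fbn1, Col6a3 and Prrx1, and no UMI of Ptprc or of the 6 endothelial genes) had a median of 1 of the 20 genes in each library. The rule had fixed that at least 3 of the 6 genes be present: Pecam1, an adhesion molecule of the endothelial junction, was in 100% of the cells at P11 and 91.4% at P56, and the junction protein gene Cldn5 in 75.0% and 47.4%. These rates and the counts of the 20 genes were read at full depth. The median endothelial cell had 10730 UMIs at P11, 5096 at P18 and 4739 at P56, so they cannot be compared between ages. Selp, the P-selectin gene of veins, had a UMI in 6.41%, 33.3% and 27.2% of endothelial cells at P11, P18 and P56 once every cell was thinned to 2000 UMIs, and in 0.0469%, 0.0784% and 0.809% of mesenchymal-gate cells (11.3%, 33.3% and 25.8% of endothelial cells without thinning). As a description, since the rule used this contrast, 410 of 7190 genes (5.7%) were at least 4-fold above all other kept cells at both P11 and P56, 19 of the 20 endothelial genes among them. No cell at P11 or P18 sat exactly at the threshold of 3 genes, and 51 cells at P56 did, with a median of 6 of the 20 other endothelial genes. Just outside it, the cells with 2 of the 6 genes numbered 7, 40 and 39, with a median of 2, 2 and 3.

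The libraries held 44104990, 53725468 and 40082499 UMIs at P11, P18 and P56, of which endothelial cells had 1055938, 51623 and 2913086. A level of 3 UMIs, used as the limit that a count of 0 allows, is therefore 2.84, 58.1 and 1.03 CPM, where CPM stands for counts scaled to a total of 1000000 UMIs over the endothelial cells of that library. The median endothelial cell had 10730, 5096 and 4739 UMIs and 3185, 1918 and 1674 genes, and the median mitochondrial share was 7.03%, 3.37% and 4.03%. Libraries also differed in sex-linked genes. Xist, the RNA of the inactive X chromosome in females, was found in 71.3% of endothelial cells at P11, 44.4% at P18 and none of 477 at P56 (up to 0.629% given 3 cells as the limit), and a Y-linked gene was found in 20.0%, 33.3% and 50.5%. Age and this difference cannot be told apart in any comparison of P11 with P56. Some endothelial cells also met the gate of mesenchymal cells or of mural cells, the pericytes and smooth muscle cells that surround vessels: 21 of 80 at P11, none of 9 at P18 and 89 of 477 at P56. Values without these cells are given for each gene named here that is no longer 4-fold apart without them. No barcode was shared by endothelial cells of different libraries, and libraries shared 4 to 8 barcodes of kept cells.

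In the 7 Gli1-lineage plates, 2 of 647 wells that passed the same filters met the endothelial rule, or 0.309% (0.0375 to 1.11%). One was at P18, with 1 of the 20 other endothelial genes, and one at P21, with 4.

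The comparison across age was made between P11 and P56, since the 9 cells at P18 had too few UMIs for most genes. Of 7190 genes with at least 50 UMIs over the 3 libraries, 195 (2.71%) were at least 4-fold higher at P56 than at P11 and 95 (1.32%) at least 4-fold lower, and at 2-fold the counts were 607 (8.44%) and 770 (10.7%). Scaled by median-of-ratios size factors instead of by total UMIs, 231 were higher and 68 lower at 4-fold, and the median log2 change of all genes moved from -0.17 to 0.00. Changes below are scaled by total UMIs and are to be read against that median of -0.17. Mesenchymal-gate cells of the same libraries, whose median change over these genes was 0.13, shared part of the differences: 83 of the 195 and 41 of the 95 were also at least 4-fold apart in the same direction there. Without the cells that also met the mural or mesenchymal gate, 172 genes were higher and 58 lower. With a stricter filter on cells (1000 genes or more, mitochondrial counts up to 5%) only 14 of the 80 endothelial cells of P11 stayed, beside 276 of 477 at P56. Under it the log2 change was 3.30 for Hmox1, -3.84 for Aplnr and -2.15 for Col4a1, still past 4-fold, whereas Irgm2 (1.62), H2-Q7 (1.63), Xdh (1.63), Srarp (1.18), H2-Q6 (0.81) and Clec14a (-0.65) no longer were. Xdh, Srarp and H2-Q6 had only 2, 1 and 2 UMIs in all 80 cells of P11, and Irgm2 had 4. Counts under 3 were set to 3 for a fold. With 14 cells left, the filter cannot decide whether the rise of these genes stays. Genes close to the threshold crossed it with the scaling: with median-of-ratios size factors Mcam was at -1.85, Aqp7 at -1.88, Clec14a at -1.97 and Cd93 at -1.99. Without the cells that also met another gate Mcam was at -1.91 and Aqp7 at -1.85. Summed CPM gives deep cells more weight. With CPM averaged over cells instead, 232 genes were higher and 128 lower at 4-fold. Of 59 list genes and named genes past 4-fold, 48 stayed so. Those that did not were Aqp7 (-0.78), Hey1 (-1.64), Cxcl12 (-1.65), Fabp5 (-1.80), Clec14a (-1.89), Procr (1.97) and the muscle genes Acta1, Ckm, Mylpf, Tnni2 and Tnnt3.

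Hmox1, which encodes the heme-degrading enzyme heme oxygenase 1, was at 59.7 CPM (45.8 to 76.3) in endothelial cells at P11, 58.1 CPM at P18 and 1294 CPM (1253 to 1336) at P56. This is a log2 change of 4.44 (4.08 to 4.82). It was one of the genes that differed in other cells as well, since mesenchymal-gate cells had 46.0 CPM at P11 and 661 CPM at P56. Fmo2, a flavin-containing monooxygenase, was at 7.58, 116 and 271 CPM at the 3 ages, a log2 change of 5.16 (4.17 to 6.38), and 4.21 in mesenchymal-gate cells. Cd24a, a small surface glycoprotein, was at 21.8 CPM at P11, 174 at P18 and 333 at P56. Its log2 change was 3.94 (3.34 to 4.60) in endothelial cells and -1.70 in mesenchymal-gate cells, where its level was 28.9 CPM at P11 and 8.87 CPM at P56. After every cell was thinned to 2000 UMIs, Cd24a was found in 2.56% of endothelial cells at P11 and 37.3% at P56, and in 3.33% and 1.06% of mesenchymal-gate cells.

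Among the 10 genes with the largest rise that were also at least 2-fold above the other cells of the library were Ifit1, whose protein binds foreign RNA, the GTPase genes Irgm2 and Igtp, and H2-Q6, a class I major histocompatibility (MHC) gene. Of these, Igtp alone is in the list of interferon and Ly6 genes. Ifit1 was at 8.52 CPM (3.90 to 16.2) at P11 and 122 CPM (110 to 136) at P56, with no UMI in the 9 cells of P18. Igtp was at 8.52 CPM at P11 and 89.6 CPM at P56 and Irgm2 at 3.79 and 51.8 CPM, again with no UMI at P18. Of the 10 genes, 3 rested on 1 or 2 UMIs at P11: Xdh, the xanthine oxidoreductase gene, with 1.89 CPM (0.229 to 6.84) against 55.6 CPM at P56, H2-Q6 with 1.89 CPM (0.229 to 6.84) against 30.9 CPM, and Srarp with 0.947 CPM (0.0240 to 5.28) against 36.0 CPM. Slc10a6, which encodes a transporter of steroid sulfates, was at 6.63, 38.7 and 88.6 CPM. Igtp and Irgm2, and H2-Q6 with its close relative H2-Q7, have near-identical copies in the genome, and reads may have been split between them in ways that cannot be seen in the counts.

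**Figure D2:**
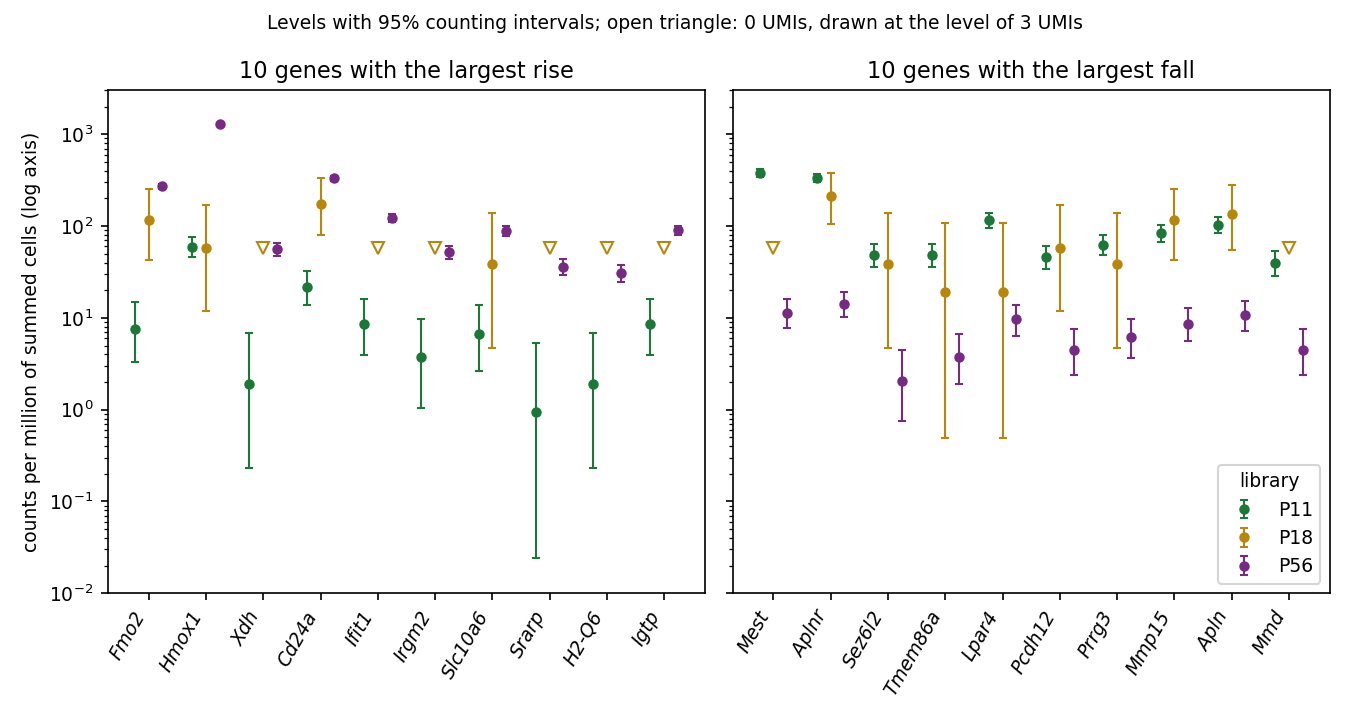
Levels in endothelial cells of the 10 genes that rose most and the 10 that fell most among those at least 2-fold above the other kept cells, in CPM on a log axis, by library (green P11, ochre P18, purple P56) with 95% counting intervals. Open triangles mark genes with no UMI, drawn at the level of 3 UMIs. Hmox1 stands at 59.7, 58.1 and 1294 CPM, and Aplnr at 333, 213 and 14.1 CPM.

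The 10 largest falls among genes at least 2-fold above the other kept cells included both members of the apelin pathway, in which the peptide apelin from sprouting tip cells acts on a receptor on neighbouring and venous endothelium. Aplnr, the receptor gene, was at 333 CPM (299 to 370) at P11, 213 CPM (106 to 381) at P18 and 14.1 CPM (10.1 to 19.1) at P56, a log2 change of -4.57 (-5.07 to -4.10). In thinned cells it was found in 46.2% at P11 and 2.22% at P56, and in mesenchymal-gate cells it was close to absent at both ages, at 0.124 and 0.0349 CPM. Apln, the ligand gene, was at 103, 136 and 10.6 CPM. All 7 of its UMIs at P18 came from 1 of the 9 cells. Of its 31 UMIs at P56, 28 (90.3%) came from a single cell, and its log2 change of -3.28 (-3.90 to -2.69) became -6.49 without the cells that also met the mural or mesenchymal gate. The largest of these 10 falls was that of Mest, an imprinted gene of growing tissue, from 377 CPM (341 to 416) at P11 to 11.3 CPM (7.80 to 15.9) at P56, with no UMI at P18. Its log2 change was -5.06 in endothelial and -4.28 in mesenchymal-gate cells. The other 7 ranged from 39.8 to 116 CPM at P11 and from 2.06 to 9.61 CPM at P56. Lpar4, a lysophosphatidic acid receptor, was at 116, 19.4 and 9.61 CPM, with a log2 change of -2.50 in mesenchymal-gate cells. The membrane metalloproteinase gene Mmp15 was at 83.3, 116 and 8.58 CPM and the protocadherin gene Pcdh12 at 46.4, 58.1 and 4.46 CPM, so P18 was on the side of P11 for both. Sez6l2 (48.3, 38.7 and 2.06 CPM), Prrg3 (62.5, 38.7 and 6.18 CPM), Tmem86a (48.3, 19.4 and 3.78 CPM) and Mmd (39.8, 0 and 4.46 CPM) made up the rest.

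Genes of the basement membrane were mostly lower at P56. All 14 passed the minimum of 50 UMIs, 11 were at least 2-fold lower and 5 of these at least 4-fold lower, none was 2-fold higher, and the median log2 change was -1.82 against -0.42 in mesenchymal-gate cells. Col4a1, a chain of the type IV collagen network, was at 4207 CPM (4084 to 4332) at P11, 2169.6 CPM (1786 to 2611) at P18 and 741 CPM (710 to 773) at P56. The 3 ages do not overlap, and P18 lies between, but 77 of the 112 UMIs at P18 came from 1 of the 9 cells. The log2 change of Col4a1 was -2.50 (-2.58 to -2.43), and it was -2.64 without the cells that also met another gate. In mesenchymal-gate cells Col4a1 was at 275 CPM at P11 and 264 CPM at P56, and in mural-gate cells at 3169 and 707 CPM. Col4a2, the partner chain, followed at 2465, 1685 and 445 CPM, with 60 of its 87 UMIs at P18 from 1 cell. Col15a1, a collagen at the outer face of the basement membrane, was at 1235, 601 and 149 CPM, Nid2 at 137, 58.1 and 20.3 CPM and the laminin chain gene Lamb1 at 288, 174 and 59.4 CPM. Sparc, which encodes a collagen-binding matrix protein, was at 7011, 3371 and 1965 CPM, a log2 change of -1.84, and of -2.35 in mesenchymal-gate cells. The 3 members less than 2-fold lower were Sparcl1 at 1525, 1007 and 919.6 CPM, Lamb2 at 106, 136 and 169 CPM and Lama5 at 54.9, 38.7 and 48.4 CPM.

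The list of tip cell and sprouting genes had 10 of 11 members tested, of which 5 were at least 4-fold lower and 1 higher, with a median of -1.97 against -0.29 in mesenchymal-gate cells. It shares Lamb1 and Nid2 with the basement membrane list. Besides Apln, the members at least 4-fold lower were Esm1, a secreted proteoglycan of tip cells, at 38.8 CPM at P11 and 5.49 CPM at P56, and Mcam, an adhesion molecule that pericytes also carry, at 262, 213 and 64.5 CPM. Plaur, the urokinase receptor gene, went the other way at 70.1, 96.9 and 364 CPM, a log2 change of 2.38 (2.04 to 2.74). Angpt2, the angiopoietin of activated endothelium, was at 28.4, 19.4 and 24.7 CPM, with overlapping intervals.

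**Figure D3:**
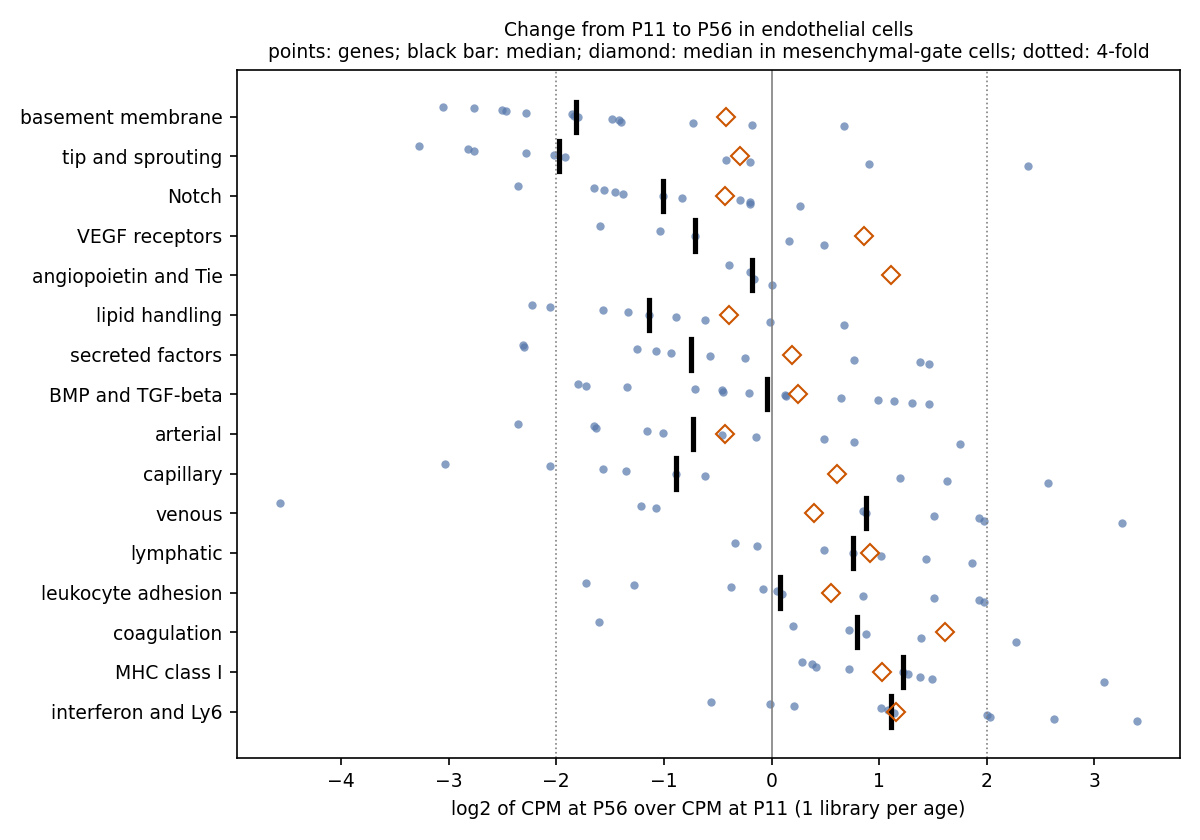
Log2 of the level at P56 over that at P11 in endothelial cells for the tested genes of 16 lists (points), with the list median (black bar) and the median of the same genes in mesenchymal-gate cells (diamond). The basement membrane median is -1.82 and the tip and sprouting median -1.97, and the MHC class I and the interferon and Ly6 lists lie at 1.22 and 1.11.

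Of the 5 VEGF receptor genes, 2 were at least 2-fold lower (10.7% of all genes tested were), none was 4-fold apart and the median was -0.71. As 2.71% of all genes tested were 4-fold higher and 1.32% lower, a count of 0 or 1 past 4-fold in lists of this size is near the background. Flt1, one of the genes used by the rule and a decoy receptor for VEGF, was at 649.7, 562 and 726 CPM. Kdr, the main signalling receptor, was at 359.9 CPM (325 to 398) at P11, 96.9 CPM (31.4 to 226) at P18 and 175 CPM (160.2 to 191) at P56, and the co-receptor gene Nrp1 at 494, 309.9 and 163 CPM. The receptor tyrosine kinase genes Tie1 (288, 407 and 219 CPM) and Tek (121, 291 and 108 CPM) and the phosphatase gene Ptprb that acts on the Tek protein (567, 562 and 569 CPM) were all within 2-fold between P11 and P56. In the Notch list, 11 of 13 genes were tested, 6 were at least 2-fold lower and none 2-fold higher, with a median of -1.01. The target gene Hes1 was at 1235, 988 and 452 CPM and its log2 change of -1.45 was the same in mesenchymal-gate cells, whereas the target gene Hey1, at 59.7, 19.4 and 11.7 CPM, was the only member 4-fold lower. The receptor gene Notch1 was at 145, 116 and 174 CPM, with overlapping intervals, and the ligand gene Jag1 at 118, 38.7 and 37.8 CPM. None of the 14 tested BMP and TGF-beta genes was 4-fold apart: 3 were 2-fold higher, 3 were 2-fold lower, and the median was -0.04, which turns to 0.13 with median-of-ratios size factors. Among them were Id1, a target of BMP signalling, at 709, 1124 and 215 CPM and Id3 at 1250.1, 3235 and 763 CPM.

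Lipid handling is a known feature of capillaries of muscle and fat. Fabp4, a fatty acid carrier, was at 9254 CPM (9072 to 9439.7) at P11, 16524 CPM (15433 to 17671) at P18 and 6016 CPM (5927 to 6105) at P56. The 3 ages do not overlap, and P18 is the highest, but with 853 UMIs from 9 cells. Fabp5 was at 932, 1549.7 and 199 CPM, a log2 change of -2.23 (-2.38 to -2.08), and the glycerol channel gene Aqp7 at 98.5, 19.4 and 23.7 CPM, a log2 change of -2.06. They were the only 2 of the 9 tested genes at least 4-fold lower, and the list median was -1.14. With CPM averaged over cells Fabp5 was at -1.80 and Aqp7 at -0.78, both short of 4-fold. The fatty acid transporter gene Cd36 was at 799, 387 and 432 CPM, and Gpihbp1, which anchors lipoprotein lipase to the capillary wall, at 754, 755 and 254 CPM. Capillary genes did not all move one way. Rgcc was at 362, 96.9 and 829 CPM and Timp4 at 65.3, 232 and 203 CPM, so that both were over 2-fold higher at P56 than at P11. Btnl9 was at 84.3 CPM at P11 and 10.3 CPM at P56, with no UMI at P18. Car4 was at 2.84 CPM (0.586 to 8.30) at P11, from 3 UMIs, and at 16.8 CPM at P56. Its log2 change of 2.57 became -0.44 with the stricter filter on cells, which left 14 endothelial cells at P11. There its P11 count was taken as 3 whatever remained, so no reversal can be read from this value. Of the 9 capillary genes Car4 was the only one past 4-fold higher and Btnl9 and Aqp7 were the ones past 4-fold lower, with a list median of -0.89. The lipid handling and capillary lists share genes, Aqp7 among them, so their counts and medians are not independent.

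Genes through which veins bind leukocytes gave a mixed picture. Selp was at 399 CPM (362 to 439) at P11, 639 CPM (440.03 to 898) at P18 and 1561 CPM (1516 to 1607) at P56, a log2 change of 1.97 (1.82 to 2.12), just under 4-fold. Its level at P11 rested on 9 cells, and 1 of them held 61.0% of the 421 UMIs. At P18 it was found in 3 cells, and 1 of them held 29 of the 33 UMIs. Vcam1 was at 80.5, 77.5 and 306 CPM and the E-selectin gene Sele at 204, 562 and 368 CPM. The chemokine-binding receptor gene Ackr1 was at 68.2, 271 and 195 CPM. Lrg1, a secreted glycoprotein that venules make under inflammation, was the venous gene with the largest rise, at 31.3 CPM (21.5 to 43.9) at P11, 252 CPM (134 to 431) at P18 and 299 CPM (279 to 319.5) at P56, a log2 change of 3.26 (2.76 to 3.81). Icam1 did not follow, at 971, 1085 and 919.99 CPM with overlapping intervals. Of 10 tested leukocyte adhesion genes, 3 were 2-fold higher and 2 were 2-fold lower, with a median of 0.08, and of 9 venous genes 4 were 2-fold higher and 3 were 2-fold lower, with a median of 0.87. Among the coagulation genes, Vwf, the von Willebrand factor gene, was at 118, 872 and 217 CPM. Procr, the protein C receptor gene, was at 36.9, 116 and 178 CPM and was the only one of 6 tested coagulation genes past 4-fold. It had a log2 change of 2.27 (1.80 to 2.78), which was 0.89 without the cells that also met the mural or mesenchymal gate.

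Of 10 tested arterial genes Hey1 was the only one past 4-fold, 5 were at least 2-fold lower and 1 at least 2-fold higher, with a median of -0.73 that became 0.17 with the stricter filter on cells. Sox17, a transcription factor of arteries, was at 155, 136 and 217 CPM, and the ephrin ligand gene Efnb2 at 161, 77.5 and 51.8 CPM. Of 7 lymphatic genes 3 were at least 2-fold higher, none lower, with a median of 0.76. Lyve1, a hyaluronan receptor, was at 74.8 CPM (59.2 to 93.2) at P11 and 272 CPM (253 to 291) at P56, and the chemokine gene Ccl21a at 483 and 817 CPM, with no UMI of either in the 9 cells of P18. At P11 the UMIs of Lyve1 came from 3 cells, 51.9% of them from 1, and those of Ccl21a from 2 cells, 68.4% of them from 1. The junction list, which includes 3 genes of the rule, had 8 of 10 members tested and none past 4-fold. Of 4 genes that respond to blood flow, Klf4 was at 424, 523 and 1014 CPM and Klf2 at 901, 1782 and 968 CPM. Of 9 tested G protein-coupled receptor genes and partners, Aplnr alone was past 4-fold, and the median was -0.39.

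Class I MHC and interferon-related genes were higher at P56 as groups, and they were so in mesenchymal-gate cells of the same libraries too. Of 9 tested class I genes, 5 were at least 2-fold higher and none 2-fold lower, with a median of 1.22 in endothelial and 1.03 in mesenchymal-gate cells. H2-D1 was at 771 CPM (719 to 826) at P11, 1569 CPM (1246 to 1950.2) at P18 and 1856 CPM (1807 to 1907) at P56, and H2-K1 at 295, 969 and 829 CPM, with overlapping intervals at P18 and P56. H2-Q7, at 5.68, 19.4 and 48.4 CPM, was the only gene of this list past 4-fold. None of 7 class II genes reached 50 UMIs. In the list of interferon and Ly6 genes, 7 of 10 were at least 2-fold higher and none 2-fold lower, with a median of 1.11 in endothelial and 1.16 in mesenchymal-gate cells. The antiviral membrane protein gene Ifitm3 was at 1725, 3389.96 and 3659 CPM and the surface protein gene Ly6a at 468, 910.4 and 1877 CPM. Iigp1, an interferon-induced GTPase, was at 207 CPM (181 to 237) at P11 and 844 CPM (811 to 879) at P56 but at 38.7 CPM (4.69 to 139.95) at P18, the lowest of the 3. The transcription factor gene Irf7 was at 12.3 CPM at P11 and 75.9 CPM at P56, with no UMI at P18. Past 4-fold were Igtp, Irf7, Iigp1 and Ly6a, the last 2 only just: without the cells that also met another gate Iigp1 was at 1.72 and Ly6a at 1.95.

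The start sites of these genes can be set beside the levels, since GAAA repeated after any 2 bases (TTTC repeated after any 2 bases when read from the other strand) is the core of the sequence that interferon regulatory factors bind. It was searched on both strands in the 250 bases before each start in the promoter table of RefSeq (GRCm38.p6). Of all 27025 promoters, 936 (3.46%) held it, and of the 5654 tested genes matched to the table, 190 (3.36%). Among genes at least 4-fold higher at P56 and at least 2-fold above the other cells, 11 of 61 matched genes (18.0%) held it, and among those at least 4-fold lower and 2-fold above the other cells, 1 of 39 (2.56%). These genes were chosen by their change, so the shares are a description. The 11 include copied sequences. The stretches around the matches are identical in Ifit3 and Ifit3b, and close copies in Tgtp1 and Tgtp2 and in Igtp and Irgm2. The share of 18.0% therefore counts some sequences more than once. In the interferon and Ly6 list 3 of 6 matched genes held it. They were Igtp, Ifitm2 (930 CPM at P11 and 2042 CPM at P56) and Bst2 (296 and 344 CPM). A match was therefore also found in a gene, Bst2, that was within 2-fold between P11 and P56. Of the 5 stretches shown here, those of Ifit1, Igtp and Irgm2 belong to genes named above by the size of their rise. Isg15 (51.1, 38.7 and 381 CPM) and Gbp2 (37.9, 19.4 and 287 CPM), both interferon-induced, were chosen after their values were seen. Each is given 5′ to 3′ on the strand of its gene, with the matches in capitals, and all lie before the annotated start.
Ifit1 (chr19:34640755-34640843, plus strand): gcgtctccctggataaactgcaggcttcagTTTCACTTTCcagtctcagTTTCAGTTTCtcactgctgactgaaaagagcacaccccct
Isg15 (chr4:156200845-156200926, minus strand): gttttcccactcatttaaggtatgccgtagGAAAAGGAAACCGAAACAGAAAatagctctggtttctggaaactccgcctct
Igtp (chr11:58199492-58199555, plus strand): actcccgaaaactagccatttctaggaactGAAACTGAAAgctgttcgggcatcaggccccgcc
Irgm2 (chr11:58214883-58214952, plus strand): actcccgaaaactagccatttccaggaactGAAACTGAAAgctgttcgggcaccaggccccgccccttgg
Gbp2 (chr3:142620574-142620643, plus strand): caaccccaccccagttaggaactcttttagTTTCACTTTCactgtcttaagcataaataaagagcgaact
The first match began 104 bases before the start in Ifit1, 78 in Isg15, 34 in Igtp, 64 in Irgm2 and 59 in Gbp2. Ifit1 held 2 matches and Isg15 held 3 that overlap. The stretches of Igtp and Irgm2, neighbours on chromosome 11, are close copies of each other. A match is a run of letters, and whether a factor was bound there was not tested.

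Among the signals that endothelial cells send to neighbouring cells, Cxcl12, a chemokine that retains blood progenitors, was at 1188 CPM (1123 to 1255) at P11, 446 CPM (282 to 669) at P18 and 242 CPM (224 to 260.2) at P56. At P18, 20 of the 23 UMIs of Cxcl12 came from 1 of the 9 cells. The log2 change was -2.30 (-2.43 to -2.16) in endothelial cells and -0.09 in mesenchymal-gate cells. It was -1.65 in endothelial cells with CPM averaged over cells, short of 4-fold. Igf1 was at 117, 77.5 and 23.7 CPM, a log2 change of -2.31, and -1.90 in mesenchymal-gate cells, where it was at 504 and 135 CPM. Of the 10 tested secreted factors these 2 were 4-fold lower and none was 4-fold higher. Kitl, the ligand of the Kit receptor, was at 381, 213 and 199.8 CPM, and Edn1, the endothelin gene, at 45.5, 213 and 118 CPM. Of the 20 endothelial genes used to check the label, Cd93 (1097, 504 and 245 CPM) and Clec14a (159, 136 and 36.0 CPM), 2 related C-type lectin family members of the endothelial surface, were 4-fold lower, though just short of it with median-of-ratios size factors. Plvap, the diaphragm protein of fenestrae, was at 539.8, 1724 and 570.2 CPM. The transcription factor list had 21 of 22 members tested and none 4-fold apart. Epas1 was at 465 CPM at P11 and P56 and Sox18 at 234, 426 and 84.5 CPM.

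Imprinted growth genes gave different counts with and without the cells that also met another gate. Of 9 tested, 5 were at least 4-fold lower, with a median of -2.32 in endothelial and -2.83 in mesenchymal-gate cells. Without the cells that also met the mural or mesenchymal gate, H19 (-8.12) and Mest (-4.87) were the only 2 of these 5 still 4-fold lower. H19 was at 443 CPM at P11 and 1.03 CPM at P56, from 3 UMIs, a log2 change of -8.75 (-11.03 to -7.19), with -9.57 in mesenchymal-gate cells. Of the whole list of 12 genes, Cdkn1c, Grb10 and Ndn alone had a UMI at P18. Dlk1 was at 115 CPM at P11 and 12.4 CPM at P56, Peg3 at 68.2 and 11.3 CPM, and Meg3 at 735 and 147 CPM. Without the cells that met another gate the log2 change went from -3.21 to -1.57 for Dlk1, from -2.59 to -1.36 for Peg3 and from -2.32 to 0.29 for Meg3. Other ways to leave out mixed cells did not all move these genes the same way. Without the clusters led by mesenchymal or mural genes Dlk1 was at -6.08, Peg3 at -1.74 and Meg3 at -4.45. Without the highest doublet scores they were at -6.39, -1.77 and -2.96. Of the 16 genes of the immediate early and stress response, which can be switched on while tissue is digested, 2 were 2-fold higher and 3 were 2-fold lower. Jund was at 848, 1317 and 2578 CPM, Atf3 at 299, 309.9 and 1055 CPM and Fos at 2128, 2053 and 1330.2 CPM. Of 19 cell cycle genes, 6 reached 50 UMIs, with a median log2 change of -0.46, and -0.39 in mesenchymal-gate cells. Hmgb2, at 251, 407 and 84.8 CPM, had the largest fall and was the only 1 at least 2-fold lower. None was 2-fold higher.

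To see how the vessel-type programmes spread over cells, each cell was thinned to 2000 UMIs, and a cell was counted when at least 2 genes of a list had a UMI. This left 78 endothelial cells at P11, 9 at P18 and 405 at P56, with 2, 0 and 72 shallower cells left out. The capillary-like cluster of P56, described below, had a median of 2525 UMIs, against 4739 for all endothelial cells of P56. Shallow capillary cells may therefore be missing from the P56 shares, and the vessel types of the 72 cells were not counted. Cells with capillary genes were 85.9% (76.2 to 92.7%) at P11 and 58.3% (53.3 to 63.1%) at P56, and 4 of the 9 at P18. Cells with tip and sprouting genes were 53.8% (42.2 to 65.2%) at P11 and 22.96% (18.95 to 27.4%) at P56, and these intervals do not overlap either. The shares for arterial genes, 35.9% and 29.6%, for venous genes, 25.6% and 34.8%, and for cell cycle genes, 17.9% and 12.3%, had overlapping intervals. Lymphatic genes were seen in 2.56% (0.312 to 8.96%) at P11 and 9.14% (6.51 to 12.4%) at P56, and in none of 9 at P18, for which the exact interval reaches 33.6%. In mesenchymal-gate cells the same counts gave between 0.0469% and 6.04% over both ages, the highest being the cell cycle list. Without thinning, the shares of cells with capillary genes were 97.5% at P11 and 79.9% at P56.

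**Figure D4:**
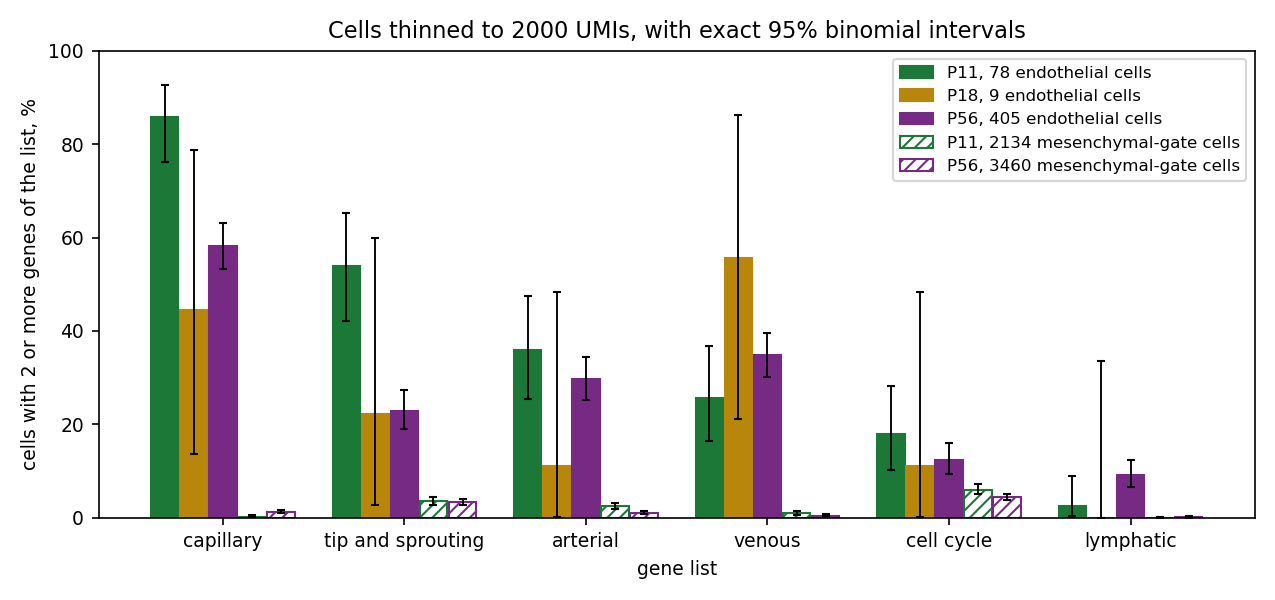
Percentage of cells with at least 2 genes of a list after thinning to 2000 UMIs, for endothelial cells (filled) and mesenchymal-gate cells (hatched) by library, with exact 95% binomial intervals. Capillary genes reach 85.9% at P11 and 58.3% at P56, and tip and sprouting genes 53.8% and 22.96%.

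A cell could be counted for more than 1 list. Of the 28 cells at P11 counted for arterial genes, 26 (92.9%) were also counted for capillary genes, against 85.9% of all cells, and they were 38.8% of the 67 cells counted for capillary genes. At P56 75 cells had both, or 62.5% of the 120 counted as arterial, against 58.3% of all cells, and 31.8% of the 236 counted as capillary. Capillary and venous genes were found together in 15 cells at P11 (22.4% of the capillary and 75.0% of the venous count) and in 69 at P56 (29.2% and 48.9%), so the share of venous cells with capillary genes was below that of all cells at both ages. None of these differences was tested. Venous and lymphatic genes met in 5 cells at P56.

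Clustering of the 566 cells gave 7 clusters. Clusters were named from the fixed vessel-type markers, and the genes that define them are a description. Capillary-like cells (cluster 1, 180 cells) and arterial-like cells (cluster 3, 76 cells) came from P56 alone, venous-like cells (cluster 2, 112 cells) from all 3 libraries, with 6, 5 and 101 cells, and lymphatic-like cells (cluster 6, 42 cells) from P11 and P56, with 2 and 40. Cluster 4, with 62 of its 67 cells from P11, stayed unnamed. Its leading genes included Sez6l2, Mest, Mki67, Aplnr, Cdk1 and Xist. Genes of several lists were at least 2-fold higher in it than in the other endothelial cells. Among them were cell cycle (Mki67, Top2a), tip and sprouting (Apln, Esm1), capillary (Cd36, Gpihbp1), arterial (Hey1, Dll4) and mural genes (Rgs5, Notch3). Cluster 4 may reflect the library of P11, as clusters 1 and 3 may reflect the library of P56. Cluster 5 (60 cells, 55 of which also met the mesenchymal or mural gate and 41 of which had doublet scores among the highest of their library) stayed unnamed too, and cluster 7 (29 cells, 27 meeting another gate) was led by mural genes. At P56 Selp was at 6194 CPM in the venous-like, 272 CPM in the capillary-like and 11.1 CPM in the arterial-like cells, and Lyve1 at 3491 CPM in the lymphatic-like cells.

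**Figure D5:**
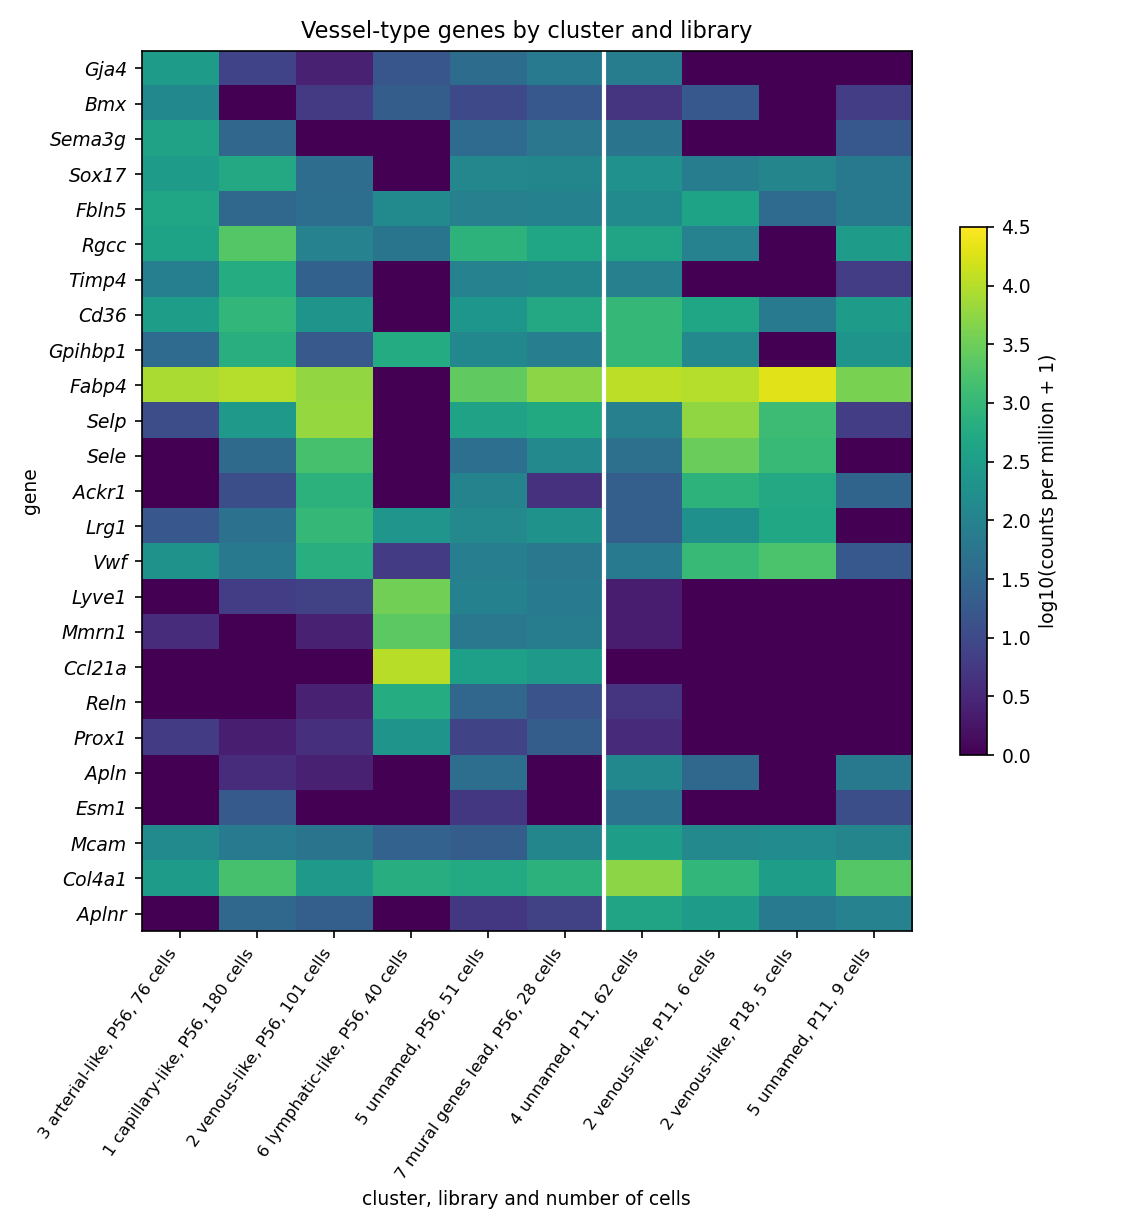
Levels of 25 vessel-type genes, as log10(CPM + 1), in the clusters of endothelial cells with their library and number of cells. Columns left of the white line are from P56 and those right of it from P11 or P18. Selp is highest in the venous-like columns, and Col4a1 is at 5177 CPM in cluster 4 at P11.

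The venous-like cluster was the only named cluster with cells of all 3 ages, and so gives levels within 1 vessel type, on 6, 5 and 101 cells. The cells were clustered on these same genes, so the levels are a description. Col4a1 was at 955 CPM (727 to 1232) at P11, 331 CPM (151 to 628) at P18 and 272 CPM (232 to 315) at P56, although 44 of the 59 UMIs at P11 came from 1 cell. Aplnr was at 291 CPM (173 to 461) at P11, found in all 6 cells, and at 22.1 CPM (12.1 to 37.1) at P56. Cd93 was at 583 CPM (408 to 807), 441 CPM (228 to 771) and 281 CPM (241 to 326). Hmox1 was at 64.8 CPM (17.6 to 166), 110.3 CPM (22.7 to 322) and 1271 CPM (1185 to 1362). Selp, whose level over all endothelial cells differed nearly 4-fold, was at 5700.4 CPM (5120.4 to 6328) and 6194 CPM (6002 to 6391) at P11 and P56 in these cells, with 257 of the 352 UMIs at P11 from 1 cell. Between the clusters of P56, Iigp1 was at 1551 CPM in capillary-like, 1230 in arterial-like, 706 in venous-like and 30.05 in lymphatic-like cells, and Hmox1 at 1804, 1020, 1271 and 2144 CPM in the same order.

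Markers of other cells moved with these results. The summed level of 9 mesenchymal genes in endothelial cells was 13735, 155 and 6099 CPM at P11, P18 and P56, and that of 11 mural genes 2175, 542 and 1843 CPM. Without the cells that met another gate these sums were 392 CPM at P11 and 819.8 CPM at P56 for mesenchymal genes and 257 and 689 CPM for mural genes, against a mesenchymal sum of 111582 and 32089 CPM in mesenchymal-gate cells. The 6 cartilage genes summed to 1602, 77.5 and 48.1 CPM and the 6 tendon genes to 819, 0 and 1588 CPM. The 6 muscle genes summed to 88.1, 0 and 628 CPM, and all 5 of them that were tested were 4-fold higher at P56. Their changes reversed when the cells with the highest doublet scores were left out. At P18 macrophage genes summed to 910.4 CPM and granulocyte genes to 309.9 CPM in the 9 endothelial cells. Each of the 6 detected macrophage genes was in 1 of the 9 cells, and the granulocyte gene S100a9 was in 7. Both lists were under 25 CPM at P11 and P56, and in the other kept cells of P18 granulocyte genes summed to 63339 CPM. The B cell list was under 20 CPM and the erythroid list under 97 CPM in all 3 libraries. At P18, 7 of the 9 mesenchymal, 9 of the 11 mural and all 6 tendon genes had no UMI. The part of these other cells in the differences between ages was not tested.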

How the data were processed

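Whole-number UMI counts per gene and droplet were deposited for 3 libraries of wild-type entheses, 1 each at P11, P18 and P56. The matrices were written by software version 3.1.0 (P11 and P18) and 3.0.2 (P56), per the file headers, and the genome build is mm10, per the submitters' processing notes. The aligner and the cell calling are not given in the sources used here. Counts of 7 plates of Gli1-lineage cells were also deposited and were used only to count wells. The matrices hold 3263, 5588 and 5520 barcodes at P11, P18 and P56, of which 2952, 5396 and 5131 were kept.

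UMIs were summed over the endothelial cells of a library and divided by their total (CPM). Genes with at least 50 UMIs over the 3 libraries were compared between P11 and P56, and at least 4-fold was called a difference. For a fold, counts under 3 were set to 3. Named genes are the 6 genes of the rule and Ptprc, the 2 to 4 members of each list with the most UMIs, members at least 4-fold apart with separate intervals, and the 10 largest rises and 10 largest falls among genes at least 2-fold above the other kept cells, without mitochondrial, ribosomal protein, unnamed, Xist and Y genes. A few others are said to be chosen after their values were seen. The members and lists were chosen with earlier results of these data known. Clusters were made with scanpy 1.11.5 and leidenalg 0.10.2 (2000 variable genes, 30 components, 15 neighbours, resolution 0.5), with numpy 2.4.6, scipy 1.17.1 and matplotlib 3.10.9. The doublet caller's own threshold marked 0.0339%, 0.927% and 0.0585% of kept cells, so it was not used. As an alternative, cells with the highest scores, 0.8% per 1000 kept cells, were left out. They held 8, 0 and 55 endothelial cells. The calculation of levels was checked on simulated counts. Other alternatives changed the rule, the filters, the scaling and the thinning.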

Additional observations from a re-analysis of the deposited data

Results flagged for a closer look

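Among genes at least 4-fold apart in both cell groups, 2 went in opposite directions between P11 and P56 in endothelial and in mesenchymal-gate cells. Both were chosen after their values were seen, and with 1 library per age the difference was not tested. Alpl, the tissue-nonspecific alkaline phosphatase gene, was at 5.68 CPM (2.09 to 12.4) in endothelial cells at P11, 0 at P18 and 50.1 CPM (42.3 to 58.9) at P56, a log2 change of 3.14, while in mesenchymal-gate cells it was at 35.5 CPM at P11 and 6.91 CPM at P56, a log2 change of -2.36. It was among the leading genes of the arterial-like cluster. Ssu2 was at 58.7 CPM (45.0 to 75.3) at P11, 0 at P18 and 13.0 CPM (9.23 to 17.9) at P56 in endothelial cells, a log2 change of -2.17. In mesenchymal-gate cells it was at 0.0928 CPM and 0.384 CPM, from 3 and 11 UMIs, a log2 change of 2.05.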

How the results depend on the processing

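No paired analysis was possible because there is a single library for each age. The depth limit is at P18, where 9 cells hold 51623 UMIs. The endothelial share at P18 was 0.908% with at least 2 genes of the rule, and at P56 it was 8.30% with at least 4. It was 1.41% at P11 and 7.89% at P56 with the stricter cell filter, 6.71% at P56 when the rule was read after thinning, and 1.999% at P11 and 7.56% at P56 without cells meeting another gate. The count of lower genes was 185 with at least 2 genes of the rule, 58 without cells meeting another gate and 547 with no filter on UMIs. With at least 200 UMIs 97 were higher and 33 lower, and at 2-fold 607 and 770. Car4 changed sign (-0.44) with the stricter cell filter. Its P11 count there was taken as 3, so no reversal can be read from this value. Directions reversed for Acan (1.40), Acta1 (-1.65), Ckm (-1.92), Mylpf (-1.63), Tnni2 (-3.07) and Tnnt3 (-1.04) without the highest doublet scores. They also reversed for Col1a1 (0.44), Col1a2 (0.53) and Meg3 (0.29) without cells meeting another gate. List medians changed sign for the arterial list (0.17), the secreted factors (0.10) and the mural list (1.02) with the stricter filter, and for the mural list (1.87), the mesenchymal list (0.53) and the VEGF ligands (0.68) without cells meeting another gate. Leaving out the clusters led by mesenchymal or mural genes or the lymphatic-like cluster was chosen after seeing the data. The cause of these differences was not tested. The shares with list genes depended on the depth. With thinning to 1000 UMIs, with at least 1 gene, and without thinning, they were 18.99%, 67.9% and 87.5% at P11 and 15.99%, 60.2% and 51.4% at P56 for arterial genes. For capillary genes they were 75.9%, 97.4% and 97.5% at P11 and 51.6%, 92.1% and 79.9% at P56. For cell cycle genes they were 10.1%, 65.4% and 66.3% at P11 and 3.20%, 43.2% and 37.9% at P56. For tip and sprouting genes they were 26.6%, 80.8% and 93.8% at P11 and 10.4%, 63.2% and 48.8% at P56. For venous genes at P11, at least 1 gene gave 61.5% and no thinning 68.8%, and at P56 the values were 25.6%, 57.3% and 44.0%. At least 1 lymphatic gene was found in 8.97% at P11 and 16.05% at P56. Over 937 values of single genes under these alternatives 814 stayed close, 113 moved and 10, Car4 among them, changed sign.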
